A study of Mus musculus with 22 samples.

Results

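The *Klk1* family encodes the tissue kallikreins of the mouse, and 6 of its genes are described here in the testis, *Klk1*, *Klk1b21*, *Klk1b22*, *Klk1b24*, *Klk1b26* and *Klk1b27*. They are 6 of the 17931 gene symbols in the count table and 6 of its 14 rows for *Klk1* and the *Klk1b* genes. They were chosen by name: *Klk1b22* because its RNA was far more abundant in the MLX KO testes of these same libraries, and the other members as relatives of it in the same family. The comparison of MLX KO with WT therefore picked *Klk1b22*, and the values of the 6 members in that comparison are given as a description without a test.

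MLX is a bHLHLZ transcription factor that forms heterodimers with members of the MXD, MNT and Mondo families, and the study asked what its loss does to the male germline. RNA was sequenced from whole testes of 7-month-old mice, 3 Wildtype (WT) and 3 constitutive Mlx knockout (MLX KO) males that the methods describe as age-matched littermate pairs. The WT males were fertile breeders, and neither genotype was treated. The KO allele lacks the exons for the bHLHLZ region in every tissue of the animal, so that a change in the testis cannot be assigned to loss of MLX in one cell type or in the testis itself, and it was made by targeting in 129S4 embryonic stem cells.

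Tissue kallikreins are secreted serine proteases. *Klk1* encodes the true tissue kallikrein, which releases kinins from kininogens, and kinins act through the B1 and B2 bradykinin receptors on vessel tone, permeability and inflammation. In the mouse the gene has been copied many times in tandem into the *Klk1b* genes, whose products have diverged in what they cut or bind, among them EGF-binding proteins of the salivary gland. In the mouse testis, *Klk1b21*, *Klk1b24* and *Klk1b27* are known as kallikreins of the Leydig cells, the interstitial cells that make testosterone.

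The 6 libraries held between 16674678 and 19742726 counts. The *Mlx* row had 96 to 128 counts in WT and 94 to 109 in MLX KO libraries. It counts the whole gene and not only the deleted exons, so it does not check the genotype labels. In the comparison of all genes, 14640 were tested and the median log2 fold change (LFC, MLX KO over WT) was 0.03. Of these genes 24.8% were higher and 20.6% lower in MLX KO testes at an adjusted p under 0.05 (quasi-likelihood test of edgeR, Benjamini-Hochberg adjustment over all genes tested), and these shares are the background for every count of genes that follows. These were 3634 higher and 3015 lower genes, and scaling by library size alone gave 5343 and 1268, with a median LFC of 0.16.

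The family lies in 1 tandem cluster on chromosome 7, and all 14 genes of the table fall between 43950664 and 44229618 (mm10, GENCODE M21 annotation, each on the plus strand). The members described here are *Klk1b26* at chr7:44012168-44016968, *Klk1b27* at chr7:44052290-44056712, *Klk1b21* at chr7:44102328-44106583, *Klk1b22* at chr7:44112673-44116922, *Klk1b24* at chr7:44188236-44192455 and *Klk1* at chr7:44225360-44229618. The annotation holds 10 *Klk1b* pseudogenes as well, and 0 of them has a row in the table.

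How far the reads can tell the members apart depends on their sequences. The transcript of *Klk1b21* was 92.8% identical to that of *Klk1b24* and 92.6% to that of *Klk1b27*, and *Klk1b24* and *Klk1b27* shared 93.3%. *Klk1b22* stood further off, with *Klk1b21* as its nearest relative at 88.4%. *Klk1* was closest to *Klk1b5* at 94.1%, and *Klk1b26* was closest to *Klk1b16* at 91.9%. Each end of a read pair was 50 bases long. Of all stretches of 50 bases in the transcript, 13.3% in *Klk1b22*, 14.3% in *Klk1b27*, 15.0% in *Klk1b26*, 28.4% in *Klk1*, 29.1% in *Klk1b21* and 33.9% in *Klk1b24* also occurred without a mismatch in another gene. With up to 2 mismatches allowed, between 45.3% (*Klk1b26*) and 72.1% (*Klk1b24*) matched another gene of the family. How the authors' counting treated reads that fit several genes is not given in the sources used here, so the split of counts among members is uncertain. Their sum is less so if each shared read was counted once.

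The promoter sequences were compared as well. In the RefSeq promoters (GRCm38.p6, 250 bases before to 50 after each start, all 14 family genes matched), *Klk1b21*, *Klk1b24* and *Klk1b27* share a stretch of 89 bases without a single difference. This stretch was searched for in these 3 genes after their counts were known. Other sets of family promoters were not searched in this way, so it does not show a grouping of the family. Of all 32851 promoters of this length, 3 hold it, those of the same 3 genes. It is shown beside its counterparts in other members. That of *Klk1b22*, whose LFC was the largest of the family, is 77.8% identical to it. That of *Klk1b26*, whose LFC was below 0, is 86.5% identical. Capitals mark bases that differ from, or are inserted into, the shared stretch, and all are on the plus strand at chr7:44102177-44102265 (*Klk1b21*), chr7:44188086-44188174 (*Klk1b24*), chr7:44052153-44052241 (*Klk1b27*), chr7:44112512-44112600 (*Klk1b22*) and chr7:44012534-44012620 (*Klk1b26*).
Klk1b21, Klk1b24 and Klk1b27: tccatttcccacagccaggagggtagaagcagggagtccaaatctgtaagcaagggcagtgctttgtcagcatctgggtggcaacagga
Klk1b22: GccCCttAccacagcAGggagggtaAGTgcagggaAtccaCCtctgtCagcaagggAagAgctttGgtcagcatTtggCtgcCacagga
Klk1b26: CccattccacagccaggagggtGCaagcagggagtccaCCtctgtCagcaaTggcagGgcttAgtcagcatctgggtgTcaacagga

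The stretch ends 27 bases before the RefSeq start of *Klk1b21*, 49 before that of *Klk1b27* and 62 before that of *Klk1b24*. Among the members, the RefSeq starts of *Klk1b21* and *Klk1b26* differ from the GENCODE starts given above. The counterpart in *Klk1b26* lies inside that gene's GENCODE span. *Klk1* matches the stretch at 79.3%, and the other 8 family genes of the table lie between 74.7% (*Klk1b8*) and 89.9% (*Klk1b11*). *Klk1b22* was among the least alike, and whether likeness to the stretch goes with the LFC across the family was not tested. The E-box CACGTG, the sequence bound by MLX heterodimers, was searched on both strands and occurs in 7.2% of all promoters and in 0 of the 14 of the family, within this window. AAGGTCA, a motif of the steroidogenic factor NR5A1, occurs in 4.7% of all promoters and in those of *Klk1* and *Klk1b21*. AGAACA, a single arm of an androgen receptor element, occurs in 19.0% and in those of *Klk1b24* and *Klk1b3*. A match is a stretch of letters and not a shown binding site, and the lack of a match does not show a lack of binding. In 14 promoters, a count of 0 differs little from a share of 7.2%.

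*Klk1b22*, which encodes EGF-binding protein A, was close to absent from WT testes. It had 8, 2 and 2 counts in WT libraries 1 to 3, against 124, 181 and 125 in MLX KO libraries 1 to 3. In CPM (counts scaled to library size, with sizes adjusted by TMM) the WT libraries stood at 0.422, 0.127 and 0.113 and the MLX KO libraries at 6.40, 10.0 and 6.62. The means were 0.221 ± 0.174 (SD, n = 3) and 7.68 ± 2.03 (SD, n = 3), with an LFC of 5.03 (SE 0.36). Every MLX KO library was above every WT library, and the lowest MLX KO value was 15.2 times the highest WT value. The size of the ratio rests on 12 WT counts in all, 8 of them in WT library 1, and the LFC was 5.92 without that library.

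*Klk1b21*, *Klk1b24* and *Klk1b27*, the members known from Leydig cells, had values like each other. *Klk1b21* had 67, 40 and 39 counts in the WT libraries and 259, 397 and 313 in the MLX KO libraries, or 2.76 ± 0.692 and 17.3 ± 4.35 CPM (SD, n = 3 each), with an LFC of 2.63 (SE 0.21). *Klk1b24* had 46, 37 and 18 counts in the WT libraries and 215, 299 and 263 in the MLX KO libraries, or 1.93 ± 0.794 and 13.9 ± 2.73 CPM, with an LFC of 2.84 (SE 0.24). *Klk1b27* had 35, 35 and 29 counts in the WT libraries and 205, 323 and 270 in the MLX KO libraries, or 1.90 ± 0.299 and 14.2 ± 3.65 CPM, with an LFC of 2.91 (SE 0.22). The groups did not overlap for any of them, and the lowest MLX KO library was 3.78 (*Klk1b21*), 4.57 (*Klk1b24*) and 4.75 (*Klk1b27*) times the highest WT library. MLX KO library 2 was the highest and MLX KO library 1 the lowest of the KO group for all 3 genes.

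*Klk1* and *Klk1b26* did not share this pattern. *Klk1* had 41, 28 and 45 counts in the WT libraries and 45, 63 and 30 in the MLX KO libraries, or 2.16 ± 0.378 and 2.46 ± 0.957 CPM (SD, n = 3 each), with an LFC of 0.18 (SE 0.28). *Klk1b26*, which encodes EGF-binding protein B, also known as the prorenin-converting enzyme, had 43, 50 and 63 counts in the WT libraries and 28, 62 and 39 in the MLX KO libraries, or 3.00 ± 0.661 and 2.31 ± 1.02 CPM, with an LFC of -0.38 (SE 0.30). The groups overlapped for both genes. Leaving out each library in turn moved the LFC of *Klk1* between -0.14 (without MLX KO library 2) and 0.42, and that of *Klk1b26* between -0.76 and -0.12.

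**Figure D1:**
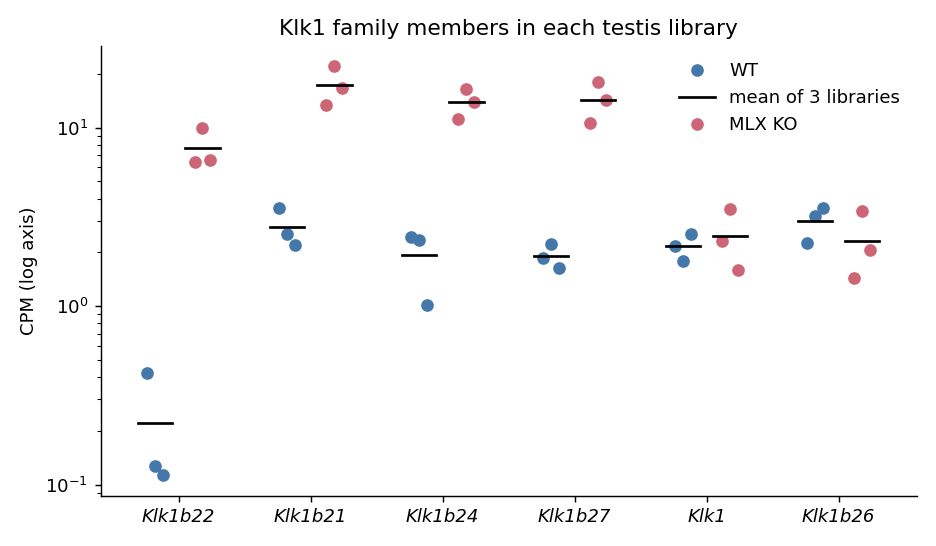
CPM of each member (y axis, log scale) in each of the 3 WT (blue) and 3 MLX KO (red) testis libraries, shown in the order of replicates 1 to 3 from left to right, with black lines at the group means. The MLX KO libraries lie above the WT libraries without overlap for *Klk1b22*, *Klk1b21*, *Klk1b24* and *Klk1b27*, and among them for *Klk1* and *Klk1b26*.

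In all, every MLX KO library was above every WT library for 4 of the 6 members and the groups overlapped for the other 2, with a median LFC of 2.74 over the 6. Across all genes tested the groups were separated in this way for 30.3%, and 0.56% (82 genes) had an LFC over 2, as the same 4 members did. Because this contrast chose *Klk1b22*, nothing is read from these counts.

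The order of levels among the 6 members, in CPM per kb of exon so that genes can be set side by side, differed between the genotypes. Outside the members, *Klk1b8* stood above the mean of each of them, at 49.9 in WT and 30.9 in MLX KO testes. *Klk1b9*, also not a member, had 8.64 and 7.41. In WT testes *Klk1b21* had the highest mean level of the 6 at 3.17 ± 0.795 (SD, n = 3), followed by *Klk1b24* (2.20), *Klk1b26* (2.16), *Klk1b27* (2.14) and *Klk1* (2.01), and the ranges of all neighbours in this order overlapped. *Klk1b22* came last at 0.258 ± 0.204, below *Klk1* in all 3 libraries. In MLX KO testes *Klk1b21* was again first at 19.9 ± 4.99, with *Klk1b27* (16.0) and *Klk1b24* (15.8) overlapping it and each other. *Klk1b22* followed at 8.98 ± 2.37 without overlap with its neighbours on either side, and *Klk1* (2.29) and *Klk1b26* (1.67) were last and overlapped. The order depends on the GENCODE exon lengths used, 1386 bases for *Klk1b26* and 871 for *Klk1b21*. In CPM without this scaling, the WT mean of *Klk1b26* was above that of *Klk1b21*, 3.00 against 2.76.

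The make-up of the members' RNA differed accordingly. Of the summed counts of the 6 members, *Klk1b22* held 3.33%, 1.04% and 1.02% in WT libraries, against 14.2%, 13.7% and 12% in MLX KO libraries. *Klk1b26* went from 25.4 ± 7.14% (SD, n = 3) to 3.88 ± 0.749%, and *Klk1* from 18.2 ± 4.30% to 4.26 ± 1.21%, although their own levels overlapped. The shares of *Klk1b21*, *Klk1b24* and *Klk1b27* were 22.9, 15.9 and 15.9% in WT libraries, against 29.9, 24.1 and 24.6% in MLX KO testes. Relative to *Klk1b27*, *Klk1b24* stayed at 99.7 ± 35.1 and 98.3 ± 6.20 counts per 100 in WT and MLX KO testes, and *Klk1b21* at 147 ± 40.0 and 122 ± 5.31, with overlapping libraries. *Klk1b22* went from 11.8 ± 9.57 to 54.3 ± 7.26 counts per 100 *Klk1b27* counts, without overlap.

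**Figure D2:**
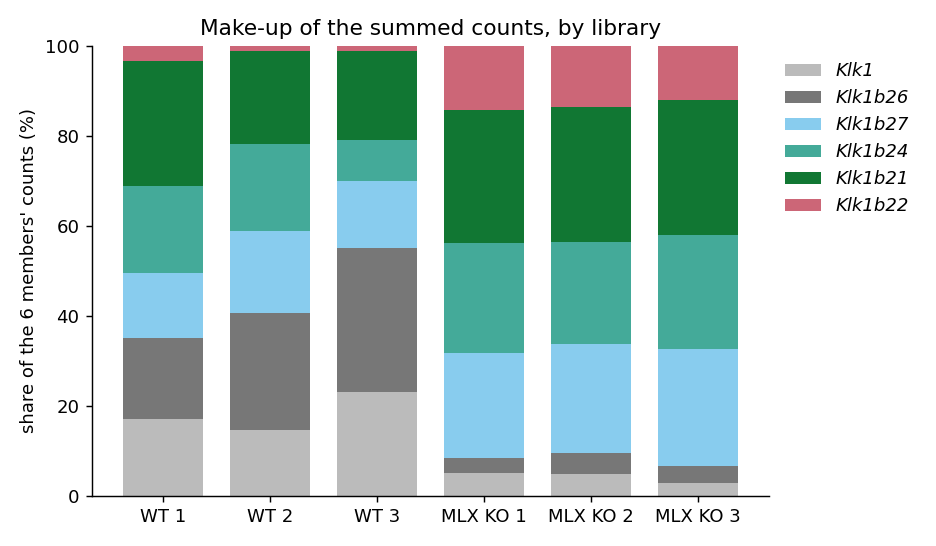
Share of each member in the summed counts of the 6 members (y axis, percent, stacked to 100) in each WT and MLX KO library. *Klk1b22* (red) takes 1.02 to 3.33% in WT and 12 to 14.2% in MLX KO libraries, and *Klk1* and *Klk1b26* (greys) together go from between 35.0 and 55.1% to between 6.63 and 9.43%.

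If each shared read was counted once, the sum over members does not depend on how reads were split among them. Whether reads were counted so is not known, and they can still be shared with the other 8 rows. The sum over members was 12.7, 12.2 and 11.1 CPM in WT libraries, against 45.2, 73.3 and 55.1 CPM in MLX KO libraries, a ratio of means of 4.83. Over all 14 rows of the family the sum was 64.7, 66.6 and 70.0 CPM in WT libraries, against 85.2, 116 and 91.6 CPM in MLX KO libraries, a ratio of 1.45, so the family's total was higher as well. The 8 rows that are not members went the other way, from between 52.1 and 59.0 CPM in WT to between 36.6 and 42.3 CPM in MLX KO libraries.

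Most of those 8 rows' counts belong to *Klk1b8*, the family row with the most counts. It had 833, 644 and 774 counts in the WT libraries and 582, 483 and 432 in the MLX KO libraries, or 42.8 ± 1.64 and 26.5 ± 3.58 CPM (SD, n = 3 each), and fell with an LFC of -0.69 (SE 0.09, adjusted p = 0.000164, edgeR's quasi-likelihood test). The groups did not overlap, and its direction was opposite to that of its tandem neighbour in the tested rows, *Klk1b1*. *Klk1b1* had 2, 2 and 1 counts in the WT libraries and 15, 28 and 15 in the MLX KO libraries, with every WT library at or under the floor of 3 counts, and its MLX KO level was at least 6.02-fold higher (adjusted p = 0.000561). *Klk1b16*, known as gamma-renin of the salivary gland, had 13, 11 and 16 counts in the WT libraries and 26, 44 and 49 in the MLX KO libraries and rose with an LFC of 1.46 (SE 0.31, adjusted p = 0.00306). Reads of these rows can also fit members, and whether shared reads moved any of them was not tested.

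The remaining *Klk1b* rows were not called in the main comparison. *Klk1b3* had 25, 29 and 47 counts in the WT libraries and 29, 44 and 35 in the MLX KO libraries, with an LFC of -0.01 (SE 0.29, adjusted p = 0.985). *Klk1b9*, EGF-binding protein C, had 91, 138 and 159 against 104, 132 and 126 counts, with an LFC of -0.21 (SE 0.22, adjusted p = 0.448), and reached -0.46 with an adjusted p of 0.037 without WT library 1. *Klk1b5* had 15, 20 and 40 against 8, 16 and 24 counts, with an LFC of -0.75 (SE 0.44, adjusted p = 0.191). It was lower in 3 of 3 pairs, and with the littermate pair as a block the adjusted p was 0.0477 in edgeR and 0.308 in DESeq2. *Klk1b4* had 5 to 9 counts in every library and *Klk1b11* had 1, 2 and 0 against 4, 9 and 5, and both fell below the filter on low counts. Without that filter *Klk1b11* was called higher (adjusted p = 0.0407; at least 1.87-fold, with its WT libraries at or under the floor), which made 3 higher rows, and *Klk1b4* was not called (adjusted p = 0.449). Of the 8 rows that are not members 6 were tested with the filter, 2 were higher and 1 was lower, with a median LFC of -0.11. Placing *Klk1b1* at its bound leaves it the highest of the 6 and the median as it is.

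**Figure D3:**
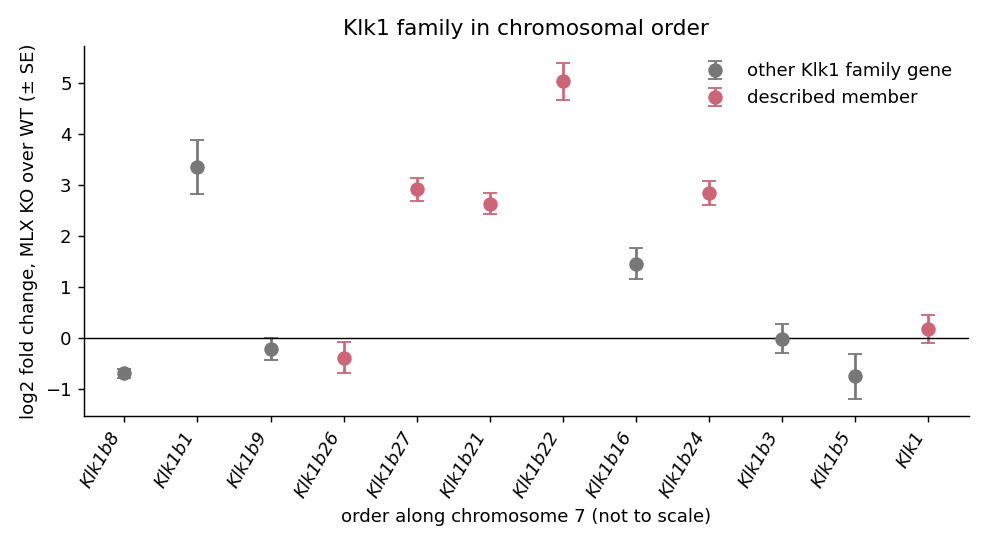
LFC of MLX KO over WT (y axis, log2, bars ± SE of the fit) for the 12 tested genes of the *Klk1* family in their order along chromosome 7, with the 6 described members in red and the others in grey. *Klk1b22* stands highest at 5.03, between *Klk1b21* (2.63) and *Klk1b16* (1.46). The end genes are *Klk1b8* (-0.69) and *Klk1* (0.18), and *Klk1b1*, beside *Klk1b8*, is next highest. The value of *Klk1b1* is a fitted one because its WT libraries were at the floor.

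Around the family, few genes of the locus were called. The 9 kallikreins of the locus outside the *Klk1* group (*Klk4*, *Klk6*, *Klk7*, *Klk8*, *Klk9*, *Klk10*, *Klk13*, *Klk14* and *Klk15*) all had too few counts for a test, and 8 of them had 3 or fewer counts in every library. *Klk15* had 7, 4 and 8 counts in the WT libraries and 6, 6 and 3 in the MLX KO libraries. Of 35 genes within 500 kb of the kallikrein cluster 28 were tested, 2 were higher and 3 lower against the background of 24.8% and 20.6%, and their median LFC was 0.03. None of the called neighbours had an LFC beyond 1 in either direction, and the LFCs of the 28 ran from -0.39 to 0.94. The gene at 0.94, *Zfp658*, was chosen for mention after its value was seen and had an adjusted p of 0.052, which was 0.035 when edgeR took the pair as a block, 0.321 when DESeq2 did and 0.0448 without MLX KO library 3. The higher neighbours were *2410002F23Rik* (LFC 0.58) and *Etfb* (LFC 0.28), and *Etfb* lost its call without WT library 3 (adjusted p = 0.0539) or MLX KO library 2 (adjusted p = 0.0569), or when DESeq2 took the pair as a block (adjusted p = 0.127).

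The Leydig cell is the known source of *Klk1b21*, *Klk1b24* and *Klk1b27*, so the members were set beside a list of 9 Leydig cell markers. All 9 were present in every library and all 9 rose, with a median LFC of 1.11. *Insl3*, the insulin-like hormone of mature Leydig cells, had the largest LFC at 1.93 (SE 0.08, adjusted p = 1.94e-07). Of the steroid-forming enzymes and their cholesterol carrier, *Cyp11a1* rose by 1.35, *Hsd17b3* by 1.31, *Star* by 1.07, *Hsd3b6* by 1.02, *Cyp17a1* by 0.90 and *Hsd3b1* by 0.58, each an LFC. *Lhcgr*, the receptor for luteinizing hormone, had an LFC of 1.25, and *Sult1e1*, the estrogen sulfotransferase, one of 1.11 (adjusted p = 0.0105) with overlapping groups. The labelled tissue thus carried its Leydig cell RNA in all 6 libraries.

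The summed level of the 9 markers was 876, 904 and 880 CPM in WT libraries, against 1877, 2493 and 2296 CPM in MLX KO libraries, a ratio of 2.51. In whole testis, more Leydig cells for the same tissue and more RNA per Leydig cell cannot be told apart. Per 1000 counts of the 9 markers, *Klk1b22* had 0.481, 0.141 and 0.128 counts in WT libraries, against 3.41, 4.02 and 2.88 in MLX KO libraries. *Klk1b21* had 3.12 ± 0.810 and 7.72 ± 0.949 (SD, n = 3 each), *Klk1b24* 2.18 ± 0.889 and 6.20 ± 0.382, and *Klk1b27* 2.14 ± 0.304 and 6.34 ± 0.773, each without overlap between the genotypes. The ratio depends on the markers summed, whose own MLX KO over WT ratios of means ran from 1.49 (*Hsd3b1*) to 3.81 (*Insl3*). The part of Leydig cell content in the values of these 4 members was not tested. *Klk1* and *Klk1b26* went from 2.44 ± 0.457 and 3.38 ± 0.734 in WT to 1.11 ± 0.370 and 1.01 ± 0.319 counts per 1000 in MLX KO libraries, without overlap. Their own CPM overlapped between the genotypes. The marker sum rose, so a gene of unchanged CPM goes down in this ratio.

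**Figure D4:**
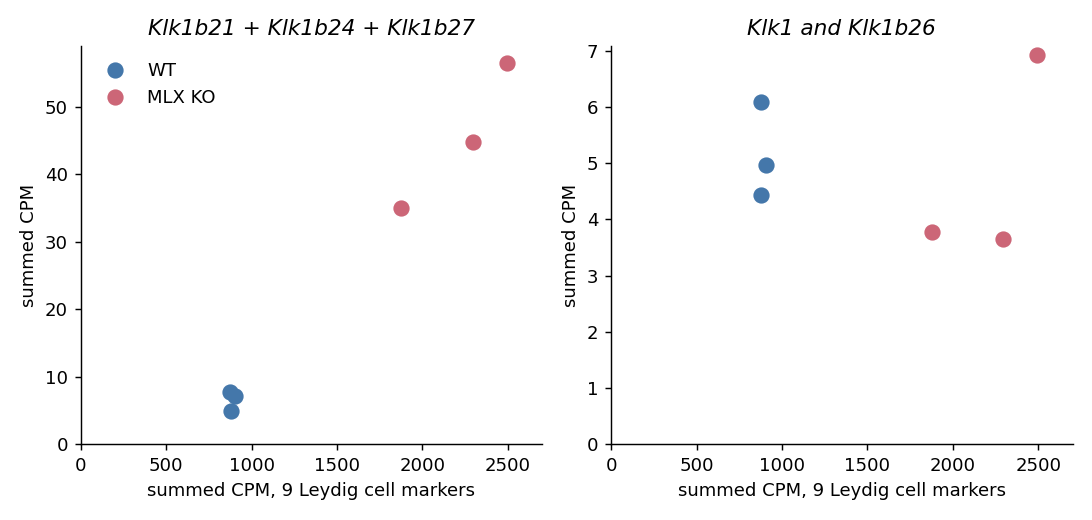
Summed CPM of *Klk1b21*, *Klk1b24* and *Klk1b27* (left, y axis) and of *Klk1* and *Klk1b26* (right, y axis on its own scale) against the summed CPM of 9 Leydig cell markers (x axis), 1 point per WT (blue) or MLX KO (red) library. On the left the WT libraries lie at 4.85 to 7.80 CPM and the MLX KO libraries at 35.0 to 56.4 CPM, while on the right the genotypes overlap at 4.43 to 6.09 and 3.65 to 6.92 CPM.

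Other cell types also moved with genotype. All 9 markers of Sertoli cells rose, and their sum was 313 to 320 CPM in WT and 457 to 542 CPM in MLX KO libraries. All 9 macrophage markers rose, with a sum of 86.3 to 92.0 CPM in WT and 185 to 190 CPM in MLX KO libraries, though *Cx3cr1* (adjusted p = 0.0494) lost its call without any single library other than MLX KO library 3. All 7 markers of elongating spermatids fell, with a median LFC of -0.74 and a sum of 15600 to 16374 CPM in WT and 8829 to 10816 CPM in MLX KO libraries. Their part in the values of the kallikreins was not tested.

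Tissues rich in kallikreins left little RNA of their own. Of 13 markers of epididymis and accessory glands 11 had a row, and their summed level was 6.01 to 7.50 CPM in WT and 5.64 to 6.40 CPM in MLX KO libraries. Only 2 of them had counts enough for a test, and *Svs5* was higher (LFC 0.88, adjusted p = 0.00964) and *Rnase10* lower (LFC -0.68, adjusted p = 0.00991). With the pair as a block in DESeq2 the adjusted p was 0.12 for *Svs5* and 0.0789 for *Rnase10*. Of 7 salivary gland genes 4 had a row. *Smr3a*, *Bpifa2* and *Dcpp1* had at most 6 counts in any library, and the salivary amylase gene *Amy1*, which is not limited to that gland, rose with an LFC of 0.86 (adjusted p = 0.0067). The salivary sum, nearly all of it *Amy1*, was 14 to 22.1 CPM in WT and 22.5 to 43.0 CPM in MLX KO libraries.

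The kininogen and kinin receptor genes, through which tissue kallikrein is known to act, had few counts. *Kng1* had 1 to 2 counts in WT and 1 to 4 in MLX KO libraries, and *Kng2* had 3 to 6 and 4 to 14, so the kininogen genes were near the floor in both genotypes. The B1 receptor gene *Bdkrb1* had 8, 3 and 12 counts in the WT libraries and 10, 4 and 10 in the MLX KO libraries and was not tested. The B2 receptor gene *Bdkrb2* had 7, 12 and 14 counts against 10, 6 and 12, with an LFC of -0.34 (SE 0.41, adjusted p = 0.517). *Klkb1*, the plasma kallikrein, which is not of this family and lies on another chromosome, had an LFC of 0.23 (SE 0.16, adjusted p = 0.252), and one of 0.43 (adjusted p = 0.0349) without WT library 3.

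Of 15 genes of the kinin system 10 were tested, 4 were higher and 1 was lower, with a median LFC of 0.40. The 4 encode peptidases able to cut kinins or other small peptides: the aminopeptidase *Xpnpep2* (LFC 1.53, SE 0.38, adjusted p = 0.00681), neprilysin *Mme* (0.99, SE 0.10, adjusted p = 3.43e-05), prolyl endopeptidase *Prep* (0.80, SE 0.10, adjusted p = 0.000134) and the endothelin-converting enzyme *Ece1* (0.70, SE 0.10, adjusted p = 0.000393). *Ace*, the angiotensin-converting enzyme, whose testis form is made by spermatids, fell with an LFC of -0.21 (SE 0.06, adjusted p = 0.00918). Its level was 769 ± 20.8 CPM in WT and 663 ± 41.7 CPM in MLX KO testes (SD, n = 3 each), the call was lost without MLX KO library 3 (adjusted p = 0.0527), and the LFC was -0.07 (adjusted p = 0.141) when libraries were scaled by size alone. That of *Xpnpep2* was lost with the pair as a block in DESeq2 (adjusted p = 0.0549).

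Among the growth factor and renin genes tied to family members by their products, 10 were listed and 6 tested, with 3 higher and 1 lower and a median LFC of 0.60. *Egf* had 80, 61 and 68 counts in the WT libraries and 106, 77 and 83 in the MLX KO libraries, with an LFC of 0.24 (SE 0.16, adjusted p = 0.226). *Egfr*, the receptor for EGF, rose by an LFC of 0.98 (SE 0.18, adjusted p = 0.00134). *Agt*, which encodes angiotensinogen, had the largest LFC of the list at 1.36 (SE 0.13, adjusted p = 2.35e-05), and *F2r*, a protease-activated receptor, had 0.96 (SE 0.25, adjusted p = 0.0081). *Ngfr* fell, at an LFC of -0.21 (SE 0.08, adjusted p = 0.0443), a call that did not hold under DESeq2 (adjusted p = 0.0672), without WT library 1 (0.0877), 2 (0.0773) or 3 (0.125), or without MLX KO library 2 (0.153) or 3 (0.16).

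Inhibitors of serine proteases were listed as well. Of 15 listed, 14 had a row and 13 were tested, with 6 higher and 1 lower and a median LFC of 0.06. *Serpina3n*, a mouse relative of alpha-1-antichymotrypsin, had 32, 31 and 46 counts in the WT libraries and 676, 915 and 992 in the MLX KO libraries, with an LFC of 4.46 (SE 0.20, adjusted p = 2.22e-07). The next in size on this list had an LFC of 1.79. This was *Serping1*, the C1 inhibitor, which restrains plasma kallikrein, and it rose by 1.79 (SE 0.09, adjusted p = 5e-07). *Serpinb6b* rose by 1.71 (SE 0.26, adjusted p = 0.000395) and *Serpina3c*, the mouse kallikrein-binding protein, by 1.17 (SE 0.19, adjusted p = 0.000584), each an LFC. *Serpina3c* had 202, 190 and 229 counts in the WT libraries and 349, 602 and 549 in the MLX KO libraries. Also called higher were *Serpina5* (LFC 1.0) and *Spint2* (LFC 0.19). *Spink2*, an acrosin inhibitor of germ cells, fell with an LFC of -0.26 (SE 0.06, adjusted p = 0.00377), and *Serpinb6c* (LFC -0.70, adjusted p = 0.0591) joined it without WT library 1 (LFC -0.91, adjusted p = 0.0272).

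The genes most like *Klk1b22* across the 6 libraries, by Pearson's r of log2 CPM, were *Abca1* (0.9984), *Vkorc1* (0.9983), *Ephb4* (0.9983), *Creg1* (0.998) and *Cryz* (0.9974). *Klk1b21* came 12th of 14639 genes at 0.996, and *Klk1b27* and *Klk1b24* had r of 0.977 and 0.976, while *Klk1* had 0.245 and *Klk1b26* -0.471. For *Klk1b21*, the member of highest WT level per kb, the most alike were *Rhoq* (0.9986), *P4hb* (0.9983), *Pdcd2* (0.9983), *Ssr3* (0.9981) and *Slc37a3* (0.9981). The 6 points form 2 clusters by genotype, so any gene that differs between the genotypes scores high: 1032 genes had r over 0.95 with *Klk1b22* and 1283 with *Klk1b21*. The sizes differed widely among the most alike, with an LFC of 1.65 for *Abca1* (4.80 to 15.1 CPM per kb) and 0.46 for *Cryz*, against 5.03 for *Klk1b22*.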

How the data were processed

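Per the labels, total RNA was extracted with Trizol and sequenced as paired ends of 50 bases. The authors aligned reads to mm10 with TopHat and deposited whole-number counts per gene symbol, without normalization. The counting tool, annotation, strand setting and handling of multiply aligned reads are not given in the sources used here. Columns with the authors' own comparison (a mean, fold changes, errors, p-values) were not used. ChIP-seq samples were not analysed here.

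Of 17933 rows, 2 repeated another row, leaving 17931 symbols. edgeR 4.0.16 (R 4.3.3) was run with a minimum count of 10, TMM and its quasi-likelihood test, two-sided, without the pair, at an adjusted p of 0.05. The floor was 3 counts per library. Exon lengths (GENCODE M21) covered 97.8% of symbols. Transcripts and promoters were aligned with Biopython 1.88. Log2 CPM for r used a prior count of 2. Alternatives were DESeq2 1.42.0, other normalizations and filters, the pair as a block, and each library left out. Code was tested on simulated data. Same-numbered libraries are littermates, and their deviations from group means correlated at 0.145, 0.0363 and 0.121, against -0.123 to 0.0330 for the others.

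Members and lists were chosen with earlier results of these data known. Named genes are all *Klk* rows, the Leydig list, up to 4 called genes of largest LFC per other list of genes acting with kallikreins, *Egf*, kininogens and bradykinin receptors, neighbours called with an LFC beyond 1, and the 5 genes most alike. Some called or near-called genes outside this rule are given as well, and others are not. The rule also names 1 further gene, whose result is not reported here. Spermatid, Sertoli and macrophage markers are given as sums.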

Additional observations from a re-analysis of the deposited data

How the results depend on the processing

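The LFC of *Klk1b22* ran from 4.7 to 5.92 with each library left out in turn, of *Klk1b21* from 2.43 to 2.86, of *Klk1b24* from 2.53 to 3.06 and of *Klk1b27* from 2.72 to 3.09. With the replicate block the LFC of *Klk1b22* was 5.0 in edgeR and 5.18 in DESeq2. The share of *Klk1b22* was 0.335% in WT and 7.8% in MLX KO testes when taken over all family rows. Among the other *Klk1b* genes, 3 were higher without the filter on low counts, which adds *Klk1b11*, 1 was higher with a filter of 1 CPM in 3 libraries, which removes *Klk1b1*, and 2 were lower with the replicate block in edgeR (1 to 2 with a library left out). The lower gene of the kinin list (*Ace*) was not called by library size alone, leaving 0 (0 to 1 with a library left out), which shifts the median LFC of all genes to 0.16. The lower gene of the growth factor list (*Ngfr*) was not called, leaving 0, under DESeq2, library size alone, upper-quartile scaling and the block in DESeq2 (0 to 1 with a library left out), and lower inhibitors numbered 1 to 2. The block in DESeq2 left 0 higher and 0 lower epididymal or accessory genes, 1 higher neighbour and 2249 higher genes overall. By library size alone 7 neighbours were higher (1 to 3 with a library left out) and 1268 genes were lower. The cause of these shifts was not tested. The block gained *Klk1b5* and *Zfp658* in edgeR, lost *Xpnpep2*, *Ngfr*, *Spint2*, *Cx3cr1*, *Rnase10*, *Svs5* and *Etfb* in DESeq2, and changed no other call in these lists. Across the alternatives run, 535 values were labelled as unmoved. For member LFCs and shares this meant within the spread, and for other *Klk1b* genes the same side of the threshold. For counts of called genes it meant only within a set ratio of the main count. By that rule 5343 higher genes by library size alone were unmoved against 3634, and a single gene could change its call unseen. The main limits are 12 WT counts for *Klk1b22*, 3 animals per genotype, and reads that fit several family genes.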
